A study of Mus musculus with 8 samples.

Results

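Keratins are the intermediate filament proteins of epithelial cells, and 10 mouse keratin genes (Krt8, Krt18, Krt19, Krt7, Krt5, Krt14, Krt15, Krt17, Krt23 and Krt80) were followed here among the 24594 genes of an RNA-seq count table. They were chosen by symbol as the keratins of the luminal and basal mammary epithelium together with Krt23 and Krt80, and all 10 were present in the table. RNA was sequenced from wild type C57BL/6J virgin mice without treatment, whose mammary epithelial cells were sorted by EpCAM, CD49f, c-Kit and CD14. The 4 LP libraries came from the c-Kit high fraction, which holds luminal progenitors, and the 4 M libraries from c-Kit low cells, called mature or differentiated luminal cells. The labels give no age of the animals, for which the study's methods state only a range of adult ages over its experiments, and they do not say whether a library was made from 1 mouse or from several. In the sample labels, each LP library shares a leading number with 1 M library, and what that number marks is not stated. The study's methods call its RNA-seq replicates biological, without saying how many animals each held. Where the libraries of a group do not come from separate animals, the p-values measure only the spread between these libraries, which may be technical.

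A keratin filament is built from paired type I (acidic) and type II (basic) keratins, so that a cell needs at least one gene of each type. In the mammary duct, the inner luminal cells are known for the type II keratins Krt8 and Krt7 and the type I keratins Krt18 and Krt19, and the outer basal, or myoepithelial, cells for Krt5 (type II) and Krt14 (type I). The filaments end on desmosomes between cells and, in cells on the basement membrane, on hemidesmosomes. In the table, 54 keratin genes were listed, 27 of them on chromosome 11 and 27 on chromosome 15, the latter holding the type II genes and Krt18.

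The libraries held 5510863 to 7089597 counts on genes in LP and 4410049 to 7791593 in M. Levels are given as CPM, in which the TMM factors of edgeR put the libraries on the same scale of depth. Differences are log2 fold changes of LP over M from edgeR's quasi-likelihood test, so that a negative value means a higher level in M, and a gene is called where its p-value, adjusted by Benjamini-Hochberg over all 12816 tested genes, is under 0.05. The sort was read in the markers. All 8 mature markers were called higher in M, where 13.8% of all tested genes were. Of 6 progenitor markers, 5 were called higher in LP, where 10.9% of all tested genes were. The exception, Aldh1a3, was higher in every LP library than in any M library (log2 fold change 1.37, adjusted p = 0.0512, edgeR). Among the 5, Kit encodes the protein that set the fractions apart, and Cd14 another surface marker that the labels list for the sort. The summed level of the progenitor markers was 461, 800, 2245 and 1768 CPM in M replicates 1 to 4, against 24348 to 34932 CPM in LP. The 9 basal markers other than keratins summed to 21.1 to 54.5 CPM in LP and 13.6 to 75.9 CPM in M, with the highest sum in replicate 3 of each group (37.4 and 37.8 CPM of it from Tagln). None of the 4 that could be tested was called, against 24.7% of all tested genes. Of these 4 markers, 2 had an unadjusted p under 0.05 in edgeR, in opposite directions. These were Acta2, higher in M (log2 fold change -2.47), and Oxtr, higher in LP (3.12).

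Of the 10 keratins, 9 passed the filter on low counts and 4 were called, all of them higher in M, against 13.8% of all tested genes called higher in M and 24.7% called in either direction. The 4 were the luminal keratins Krt8, Krt18, Krt19 and Krt7. No member was called higher in LP by edgeR's quasi-likelihood test, where 10.9% of all tested genes were. At an unadjusted p under 0.05 there was 1 such member, Krt23, and the DESeq2 Wald test and edgeR's likelihood ratio test each called 1. The quasi-likelihood test with the shared label number as a block also called 1 (Krt23, adjusted p = 0.00187). Every M library lay above every LP library in 4 members, as in 15.5% of all tested genes, and every LP library above every M library in 0 members, as in 14.0% of all tested genes. The median log2 fold change was -1.24 over the 9 tested members and -2.85e-05 over all tested genes. In bulk RNA, more cells of a type and more RNA per cell cannot be told apart.

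**Figure D1:**
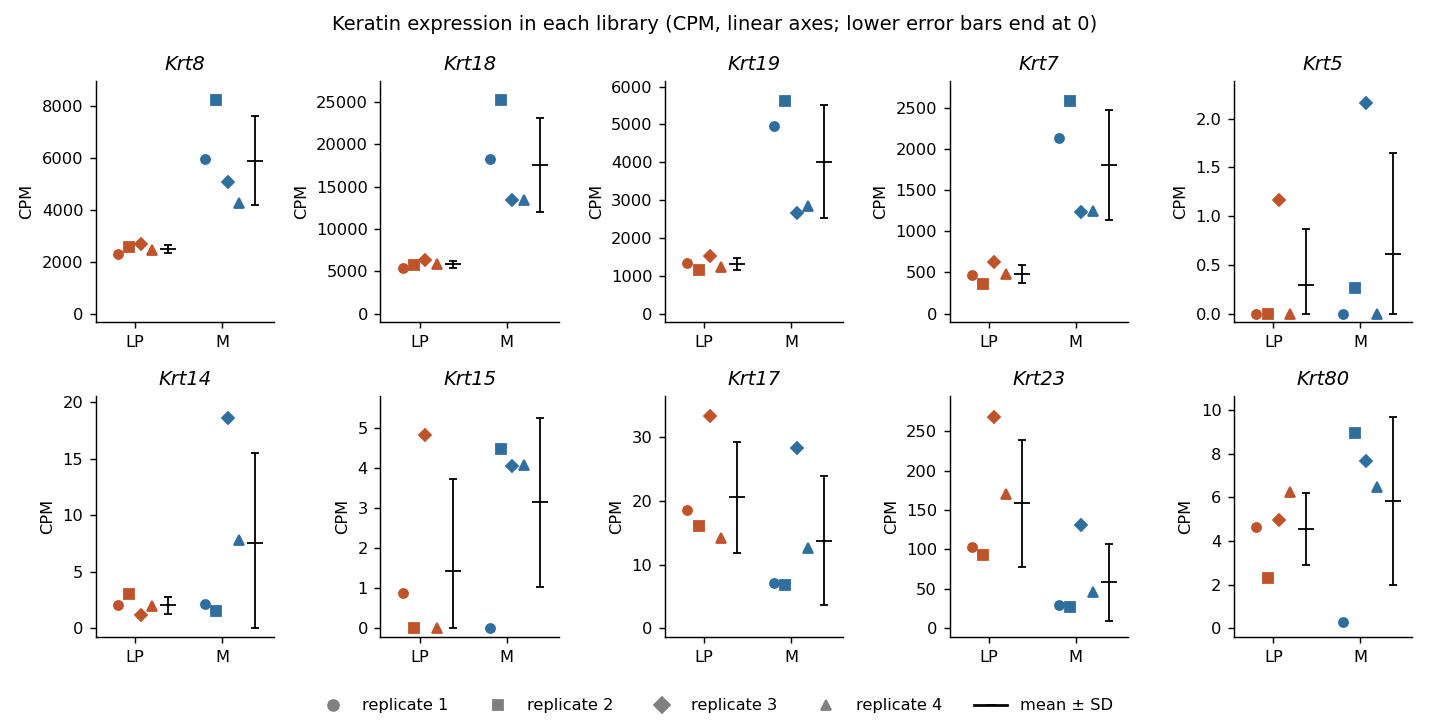
Level of each keratin in CPM (vertical axes, linear, with a separate scale for each gene) in the 4 LP libraries (orange) and 4 M libraries (blue), with symbols for the replicate number and black bars for the mean ± SD, cut at 0. Krt8, Krt18, Krt19 and Krt7 do not overlap between the groups, while the other 6 do.

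Among the luminal type I keratins, Krt18 was the most abundant. Krt18 (Entrez Gene 16668, chr15:102028216-102032026 of mm10, plus strand) encodes the type I partner of Krt8. Its level was 5353, 5719, 6384 and 5864 CPM in LP replicates 1 to 4 and 18212, 25188, 13429 and 13410 CPM in M replicates 1 to 4. All M libraries were higher than all LP libraries, and M replicates 1 and 2 were higher than M replicates 3 and 4. The mean was 5830 ± 427 CPM in LP and 17560 ± 5565 CPM in M (SD, n = 4 each). The log2 fold change was -1.59 (SE 0.258, adjusted p = 0.00190, edgeR), a 3.01-fold higher level in M.

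Krt19 (Entrez Gene 16669, chr11:100140810-100145926, minus strand) encodes a small type I keratin without the usual tail domain. It had 1334, 1159, 1518 and 1227 CPM in LP and 4962, 5632, 2654 and 2834 CPM in M. The groups did not overlap, and M replicates 1 and 2 again had the higher values. Its log2 fold change was -1.62 (SE 0.274, adjusted p = 0.00235, edgeR), or 3.07-fold higher in M.

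Of the type II keratins, Krt8 (Entrez Gene 16691, chr15:101996711-102004342, minus strand) lies next to Krt18, and the 2 genes are transcribed away from each other. Krt8 had 2301, 2555, 2667 and 2426 CPM in LP and 5949, 8220, 5050 and 4261 CPM in M. The M libraries all exceeded the LP libraries, with M replicate 2 the highest. Its log2 fold change was -1.24 (SE 0.231, adjusted p = 0.00371, edgeR), or 2.36-fold higher in M. A pseudogene with nearly the same sequence is described further on.

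Krt7 (Entrez Gene 110310, chr15:101412403-101427806, plus strand) encodes the other type II keratin of simple epithelia in this set. It had 467, 364, 629 and 481 CPM in LP and 2133, 2580, 1239 and 1248 CPM in M. The groups did not overlap, with LP replicate 3 highest in LP and M replicates 3 and 4 lowest in M. For Krt7 the log2 fold change was -1.89 (SE 0.286, adjusted p = 0.00131, edgeR), a 3.71-fold difference. Of all tested genes, 4.70% had a lower log2 fold change than Krt7 and 9.17% a lower one than Krt8.

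In each of the 4 luminal keratins, M replicates 1 and 2 were higher than M replicates 3 and 4. The progenitor markers ran the other way among the same libraries (461 and 800 CPM in M replicates 1 and 2, 2245 and 1768 CPM in M replicates 3 and 4), while the summed level of 6 epithelial and luminal markers went with the keratins (25931 and 29293 against 8883 and 11852 CPM). Most of that sum was Cldn4 (19164 and 22274 against 4493 and 6531 CPM), whereas Epcam, which the sort used, had 1595 and 1779 against 1870 and 2287 CPM. Between the groups, 4 of these 6 genes were called higher in M and 0 higher in LP, where 13.8% and 10.9% of all tested genes were. Fibroblast markers summed to 138 and 179 CPM in M replicates 1 and 2 and to 28.3 and 27.0 CPM in M replicates 3 and 4, with 132 and 154 CPM from Dcn in the former and Col1a1 and Col1a2 at 0 to 4.04 CPM in all 4. Endothelial markers summed to 0.984 to 8.48 CPM and markers of blood-derived cells to 5.88 to 31.4 CPM over the 8 libraries, with Kdr and Cd3e at 0 in all of them. The part of these in the keratin levels was not tested. The study lists Krt8, Krt18, Krt19 and Krt7 in a mature gene set that it drew from these same samples, so membership there is not independent evidence of the direction.

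**Figure D2:**
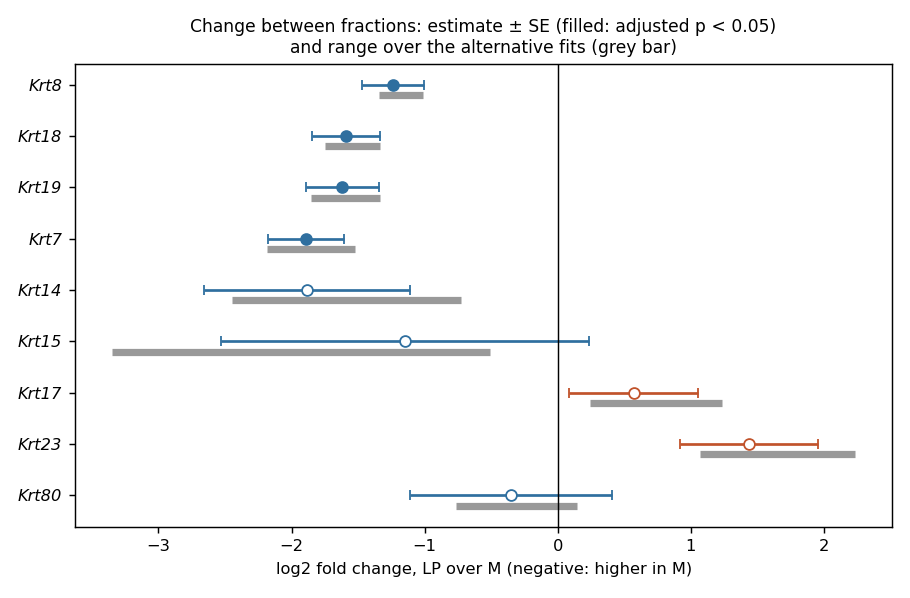
Log2 fold change of LP over M (horizontal axis, negative where M is higher) for the 9 tested keratins, as points ± SE, filled where the adjusted p from edgeR was under 0.05, with grey bars for the range over the alternative fits. The 4 luminal keratins lie between -1.89 and -1.24, and Krt23 and Krt17 are the members above 0.

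Krt23 was the member with the largest fitted difference towards LP, although the test on group alone did not call it. Krt23 (Entrez Gene 94179, chr11:99477973-99493120, minus strand) is a less studied type I keratin. Its level was 103, 93.3, 268 and 170 CPM in LP and 29.2, 26.5, 131 and 46.6 CPM in M. M replicate 3 overlapped the LP libraries, and replicate 3 was the highest library of both groups. Within each replicate number, the M library had 0.284, 0.284, 0.487 and 0.274 times the level of the LP library. Its log2 fold change was 1.44 (SE 0.517, adjusted p = 0.0661, edgeR). With the shared label number as a block it was 1.63 (adjusted p = 0.00187, edgeR), which passes the threshold. Without M replicate 3 it was 2.24 (adjusted p = 0.00326, edgeR), which passes the threshold as well. The sums of the basal markers and of the progenitor markers were also highest in M replicate 3 among the M libraries, and their part in this was not tested.

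Keratins known from basal cells had low counts beside the luminal keratins, and Krt5 was near the limit of detection. Krt5 (Entrez Gene 110308, chr15:101707069-101712905, minus strand) had 0, 0, 7 and 0 counts in LP and 0, 1, 15 and 0 counts in M. Replicate 3 of each group held nearly all of them. In the libraries with 0 counts, 3 counts would have been 0.416 to 0.452 CPM, which is the level that a count of 0 allows. This limit covers counting error alone. Krt5 did not pass the filter, and a two-sided exact permutation test of its CPM gave p = 0.714, where 4 against 4 libraries allow no p below 0.0286.

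Krt14 (Entrez Gene 16664, chr11:100203162-100207510, minus strand), the type I partner of Krt5, had 2.03, 3.02, 1.16 and 1.94 CPM in LP and 2.11, 1.58, 18.6 and 7.84 CPM in M. M replicates 1 and 2 were within the range of LP, while M replicates 3 and 4 were above it. The log2 fold change was -1.88 (SE 0.776, adjusted p = 0.103, edgeR), and it was -0.90 without M replicate 3 (adjusted p = 0.398, edgeR). Of the basal markers, Acta2, the smooth muscle actin of myoepithelial cells, was also highest in M replicates 3 and 4 (16.6 and 10.2 CPM, against 4.36 and 2.89 CPM in M replicates 1 and 2), and Trp63, a transcription factor of basal cells, had 3.03 and 5.42 CPM there against 0.281 and 0.263 CPM. Others of the list did not follow this order, such as Myl9 (5.20, 0, 4.48 and 0.301 CPM in M replicates 1 to 4) and Cnn1 (1.27, 3.15, 1.73 and 2.26 CPM). The part of basal cells in the Krt14 values was not tested.

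Krt15 (Entrez Gene 16665, chr11:100131759-100135949, minus strand), a type I keratin known from basal cells of stratified epithelia, had 6, 0, 29 and 0 counts in LP and 0, 17, 28 and 27 counts in M. The groups overlapped, and the log2 fold change was -1.15 (SE 1.38, adjusted p = 0.587, edgeR), or -3.35 without LP replicate 3 (adjusted p = 0.168). Krt17 (Entrez Gene 16667, chr11:100256215-100261029, minus strand), a type I keratin known for its induction in stressed epithelium, had 18.6, 16.1, 33.2 and 14.2 CPM in LP and 7.03, 6.83, 28.3 and 12.7 CPM in M. Replicate 3 was the highest in both groups, as in Krt5 and Krt23, and the log2 fold change was 0.57 (SE 0.486, adjusted p = 0.428, edgeR). It was 1.23 without M replicate 3 (adjusted p = 0.0544, edgeR) and 0.25 without LP replicate 3 (adjusted p = 0.775, edgeR). The mRNAs of Krt14 and Krt17 were 89.1% identical over 957 bases and those of Krt14 and Krt16 87.0% over 1285 bases, so that their counts are uncertain where reads matched both.

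Krt80 (Entrez Gene 74127, chr15:101348315-101370162, minus strand), a type II keratin of differentiating epithelia, had 4.65, 2.30, 4.98 and 6.24 CPM in LP and 0.281, 8.93, 7.65 and 6.48 CPM in M. M replicate 1 was the lowest of all libraries and M replicate 2 the highest, and the log2 fold change was -0.35 (SE 0.762, adjusted p = 0.777, edgeR). Krt5, Krt14, Krt15 and Krt17 together had 24.3 ± 10.9 CPM in LP and 25.0 ± 19.9 CPM in M (SD, n = 4 each). These sums combine means that ran in opposite directions, with Krt17 at 20.5 CPM in LP and 13.7 CPM in M, and Krt14 at 2.04 and 7.54 CPM. Per 1000 counts of the 4 luminal keratins, Krt5, Krt14, Krt15 and Krt17 had 1.61 to 3.60 counts in LP and 0.292 to 2.37 in M. The luminal keratins in this ratio summed to a mean of 10112 CPM in LP and 29250 CPM in M.

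To compare levels between genes, CPM was divided by the length of the mRNA in kilobases (RPKM). On this scale Krt18 stood first in both groups (4057 ± 297 RPKM in LP and 12220 ± 3872 in M, SD, n = 4 each), followed by Krt8 (1270 ± 80.9 and 2998 ± 874) and Krt19 (831 ± 99.4 and 2551 ± 952). In M, the difference between the means of Krt8 and Krt19 was within the spread of the libraries. Krt8 was the higher of these genes in M replicates 2 to 4, and Krt19 in M replicate 1 (3149 against 3038 RPKM). Krt8 was taken here from its own counts alone. The counts on Nlrp4e, described further on, were 0.765 to 0.780 times those of Krt8 in each library. With them added, the mean of Krt8 would lie further above that of Krt19. Krt7 came next in M (440 ± 163) and in LP (119 ± 26.7), where Krt23 (101 ± 51.4) did not differ from it beyond the spread. The Krt7 values rest on an mRNA of 4094 bases, the longest of the set, and a shorter transcript would place it higher. Krt17 had 13.2 ± 5.58 RPKM in LP and 8.83 ± 6.51 in M, and Krt14, Krt80, Krt15 and Krt5 had means between 0.132 and 4.44 in either group, with neighbours in the order within each other's spread.

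The 10 keratins took 1.04% to 1.26% of all counts in LP and 2.16% to 3.60% in M. The 4 luminal keratins made up 97.2% to 98.7% of all keratin counts in LP and 99.0% to 99.8% in M. Some of their proportions to one another also differed between the groups. Krt18 had 3.05 to 3.29 times the level of Krt8 per length in LP and 3.62 to 4.29 times in M. The means were 3.19 ± 0.109 and 4.06 ± 0.299 (SD, n = 4 each), without overlap (exact two-sided permutation p = 0.0286, which is the lowest possible with 4 libraries a group, adjusted p = 0.0429 over 3 ratios). The ratio of Krt7 to Krt8 per length was 0.0932 ± 0.0186 in LP and 0.145 ± 0.0225 in M, again without overlap (exact permutation p = 0.0286, adjusted p = 0.0429). The ratio of Krt19 to Krt18 was 0.205 ± 0.0204 in LP and 0.206 ± 0.0297 in M, which differed by less than the spread between libraries (exact permutation p = 0.971). These ratio tests were not among the tests set beforehand. Their adjustment covers only the 3 ratios printed and not the other ratios among the 4 genes. Since a gene's length is the same in all libraries, the order of the groups in these ratios does not depend on it.

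**Figure D3:**
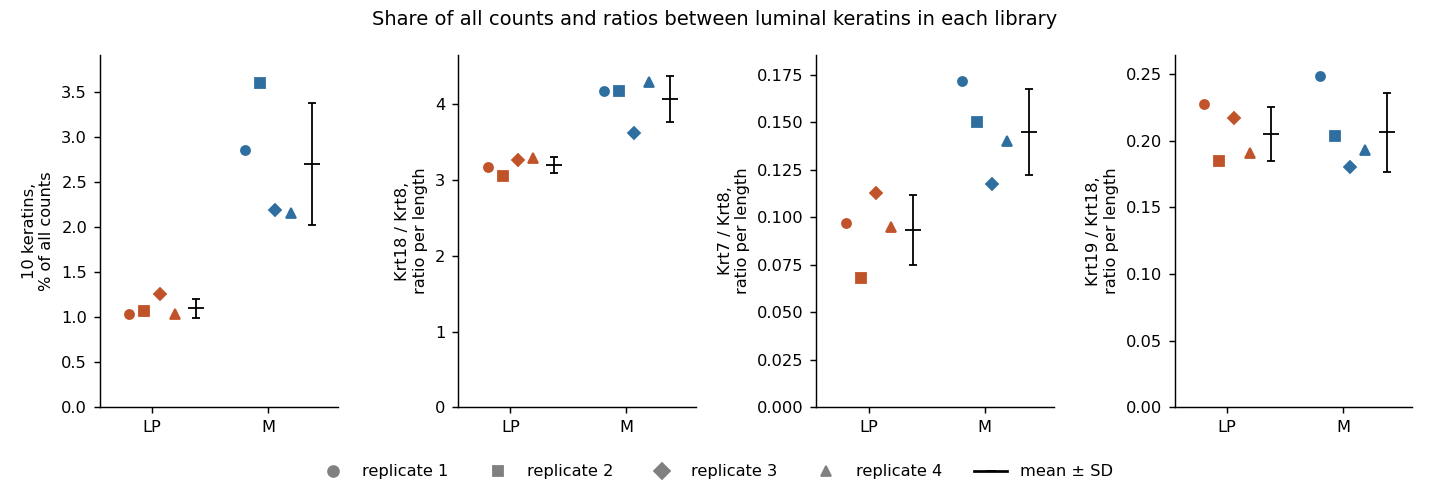
Share of all counts on the 10 keratins (left, in %) and ratios between luminal keratins per mRNA length (other panels) in each LP (orange) and M (blue) library, with symbols for the replicate number and bars for the mean ± SD. The share and the ratios of Krt18 and Krt7 to Krt8 are higher in every M library, while Krt19 to Krt18 overlaps.

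Krt8 was joined in the table by a gene that followed it almost exactly. By the root mean square difference of log2(CPM + 1) centred on each gene's mean over the 8 libraries, the tested gene most like Krt8 of 12815 was Nlrp4e (0.0107), followed at a distance by Clk4 (0.123) and Zc3h15 (0.131). Krt18 was at rank 25 (0.188), Krt19 at rank 140 (0.262) and Krt7 at rank 805 (0.397). Nlrp4e (Entrez Gene 446099, chr7:23301192-23362277) belongs to a family of NLR genes known from oocytes. It had 12116, 13611, 12531 and 13409 counts in LP and 32938, 24009, 27062 and 21697 counts in M, which was 0.765 to 0.780 times the counts of Krt8 in each library. The other 17 Nlrp genes in the table had at most 20 counts in any library. Nlrp4e had a log2 fold change of -1.24 (SE 0.228, adjusted p = 0.00346, edgeR).

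The intron of Nlrp4e between exons 8 and 9 (chr7:23355278-23361840) holds Krt8-ps, a processed pseudogene of Krt8 (chr7:23357125-23358069 in GENCODE M21 of GRCm38, plus strand), which has no row of its own in the table. A processed pseudogene is a genomic copy of a spliced mRNA, so the exon junctions of the mRNA are continuous in it. Krt8-ps was 98.6% identical to the Krt8 mRNA over 941 bases. The bases around the junction of Krt8 exons 1 and 2 (after base 585 of the mRNA) and of exons 2 and 3 (after base 794) are shown because a read over a junction has no continuous match in the Krt8 gene itself. Each run has 90 bases, and capitals mark the base at which the copies differ.
Krt8 exons 1-2: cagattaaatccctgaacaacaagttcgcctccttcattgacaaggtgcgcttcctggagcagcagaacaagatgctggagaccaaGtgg
Krt8-ps exons 1-2: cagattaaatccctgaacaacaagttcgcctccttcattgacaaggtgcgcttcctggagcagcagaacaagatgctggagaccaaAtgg
Krt8 exons 2-3: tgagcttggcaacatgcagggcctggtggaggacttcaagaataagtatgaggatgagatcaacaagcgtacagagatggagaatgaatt
Krt8-ps exons 2-3: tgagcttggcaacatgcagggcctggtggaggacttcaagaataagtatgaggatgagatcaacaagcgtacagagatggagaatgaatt
The runs over exons 1 and 2 differed at 1 base and those over exons 2 and 3 at 0 bases. Of the other 6 junctions, that of exons 3 and 4 differed at 0 of 90 bases, exons 4 and 5 at 2, and exons 5 and 6 at 4. The last 3 had no close counterpart in the 945 bases of Krt8-ps, where the best placement left 45 to 53 differences. The reads were 51 bases long, and 510 of the 1908 windows of 51 bases in the Krt8 mRNA (26.7%) occur unchanged in Krt8-ps. For Krt18 and its closest pseudogene Gm5200, the same count was 4 of 1387 windows (0.288%). The authors aligned with bowtie2, which does not split a read over an intron. How reads with several matches were counted is not given in the sources used here, and the origin of the counts on Nlrp4e was not tested, since the reads were not used here.

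With the counts of Nlrp4e added to those of Krt8, an alternative chosen after seeing the data, the summed counts were 1.76 to 1.78 times those of Krt8 alone. The log2 fold change of this sum was -1.24 (SE 0.240, adjusted p = 0.00440, edgeR), the same as for Krt8 alone. The level of Krt8 against other genes moved with it. Krt18 had 1.80 ± 0.0587 times the level of the sum per length in LP and 2.29 ± 0.171 times in M (SD, n = 4 each), against 3.19 and 4.06 times that of Krt8 alone. The groups did not overlap in this ratio either.

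**Figure D4:**
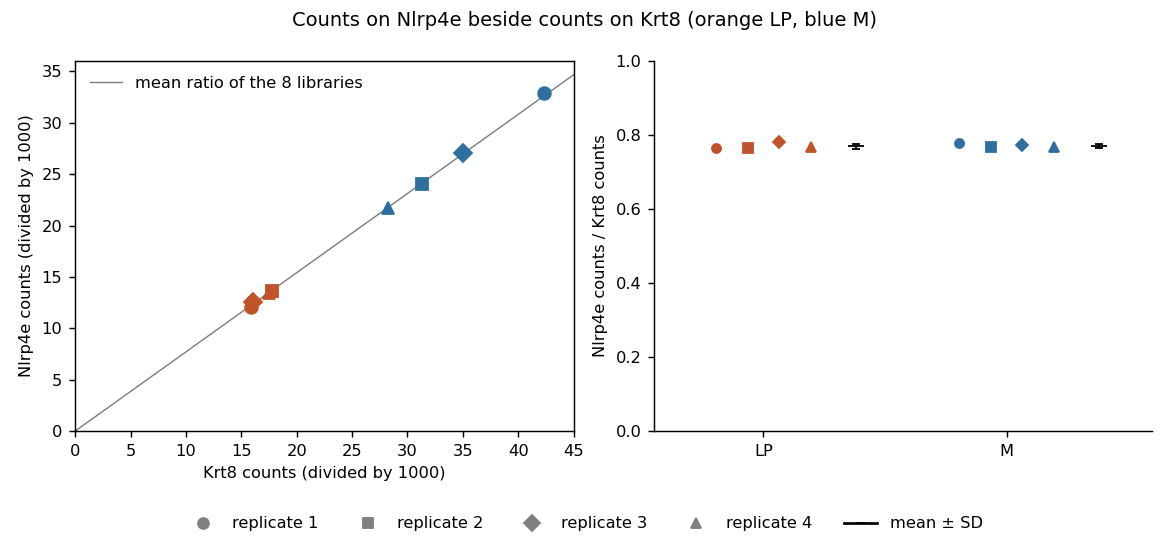
Left, counts on Nlrp4e against counts on Krt8 (both divided by 1000) in the 4 LP (orange) and 4 M (blue) libraries, with a line at the mean ratio of the 8 libraries. Right, the ratio of the 2 counts in each library with bars for the mean ± SD, which lies between 0.765 and 0.780 throughout.

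For Krt14, the most similar profiles were those of Tex14 (0.297), Nalcn (0.319) and Hells (0.357) by the same measure, all further from it than the 3 closest genes were from Krt8. Krt14 had 129 and 52 counts in M replicates 3 and 4 and 6 to 21 in the other libraries. Its profile therefore rested mainly on those 2 libraries, and shared regulation with these genes was not tested. The luminal keratins ranked from 4941 (Krt8) to 9396 (Krt7) in likeness to Krt14.

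Besides the 10 members, 44 keratin genes were listed. Of these, 16 had no count in any library and 3 passed the filter (Krt10, Krt222 and Krt87). None of the 3 was called by edgeR's quasi-likelihood test (0 at an unadjusted p under 0.05), against 24.7% of all tested genes. Krt10, a type I keratin of the epidermis, was the only one with a group mean of 10 CPM or more, at 10.6, 9.92, 4.15 and 4.58 CPM in LP and 13.4, 16.8, 6.79 and 4.37 CPM in M. Singled out after their values were seen, Krt83, a hair keratin, had 0 counts in all LP libraries and 0, 21, 111 and 34 counts in M, and Krt6a had 7, 0, 0 and 0 counts in LP and 69, 52, 0 and 2 counts in M. Krt83 was highest in M replicate 3, where Krt6a had 0 counts.

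The genes whose products hold keratin filaments were read in lists chosen for their function. Of 14 genes for desmosomal and other proteins that bind keratins, all 14 were tested, 5 were called higher in M, 1 higher in LP and 8 were not called, where 13.8% and 10.9% of all tested genes were called in these directions. Desmoplakin (Dsp), which ties keratins to desmosomes, had 107, 79.9, 54.1 and 61.0 CPM in LP and 185, 175, 144 and 148 CPM in M. The groups did not overlap, and its log2 fold change was -1.11 (SE 0.219, adjusted p = 0.00499, edgeR). The other 4 called higher in M were the desmosomal cadherin Dsc2 (-1.63), the plakins Evpl (-1.43) and Dst (-0.78), and the cytolinker Plec (-0.66). Pkp1, a desmosomal plaque protein, was higher in LP, with 37.6 to 51.5 CPM there and 2.36 to 26.7 CPM in M (log2 fold change 1.75, SE 0.536, adjusted p = 0.0355, edgeR). The list's median log2 fold change was -0.32, against -2.85e-05 over all tested genes.

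Among 6 genes of the hemidesmosome, 4 were tested and 1 was called, against 24.7% of all tested genes, namely Itgb4, the integrin subunit that binds plectin. Itgb4 had 14.6 ± 4.96 CPM in LP and 28.6 ± 6.65 CPM in M (SD, n = 4 each), with a log2 fold change of -0.97 (SE 0.317, adjusted p = 0.0464, edgeR). Col17a1, a transmembrane hemidesmosome collagen, had at most 1.58 CPM, and the median log2 fold change of the 4 tested genes was 0.070. Of 8 intermediate filament genes other than keratins, 6 were tested and none was called (1 had an unadjusted p under 0.05 in edgeR). Lmna, which encodes the nuclear lamins A and C, had 326 to 485 CPM in LP and 305 to 387 CPM in M, and Vim, the filament protein of mesenchymal cells, had at most 7.22 CPM in any library. These 6 had a median log2 fold change of 0.35.

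Of 8 transcription factors known to act at keratin genes, 7 were tested and 5 were called, 3 higher in M and 2 higher in LP, where 24.7% of all tested genes were called in either direction. Klf5, a zinc finger factor of proliferating and differentiating epithelia, had 184, 168, 214 and 194 CPM in LP and 612, 706, 517 and 341 CPM in M. The groups did not overlap, and its log2 fold change was -1.52 (SE 0.222, adjusted p = 0.00112, edgeR). Elf3, an ETS factor of epithelia (-1.20), and Tfap2a, an AP-2 factor (-0.72), were also higher in M. The AP-2 factor Tfap2c had 103 to 154 CPM in LP and 11.8 to 67.7 CPM in M (log2 fold change 2.19, SE 0.500, adjusted p = 0.00971, edgeR), and Grhl2, a grainyhead factor, was higher in LP as well (1.10). The median over the 7 was -0.40. Tfap2c was highest in M replicate 3 among the M libraries, as were Krt23 and the summed progenitor markers (2245 CPM). This order is therefore not particular to Tfap2c and Krt23.

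**Figure D5:**
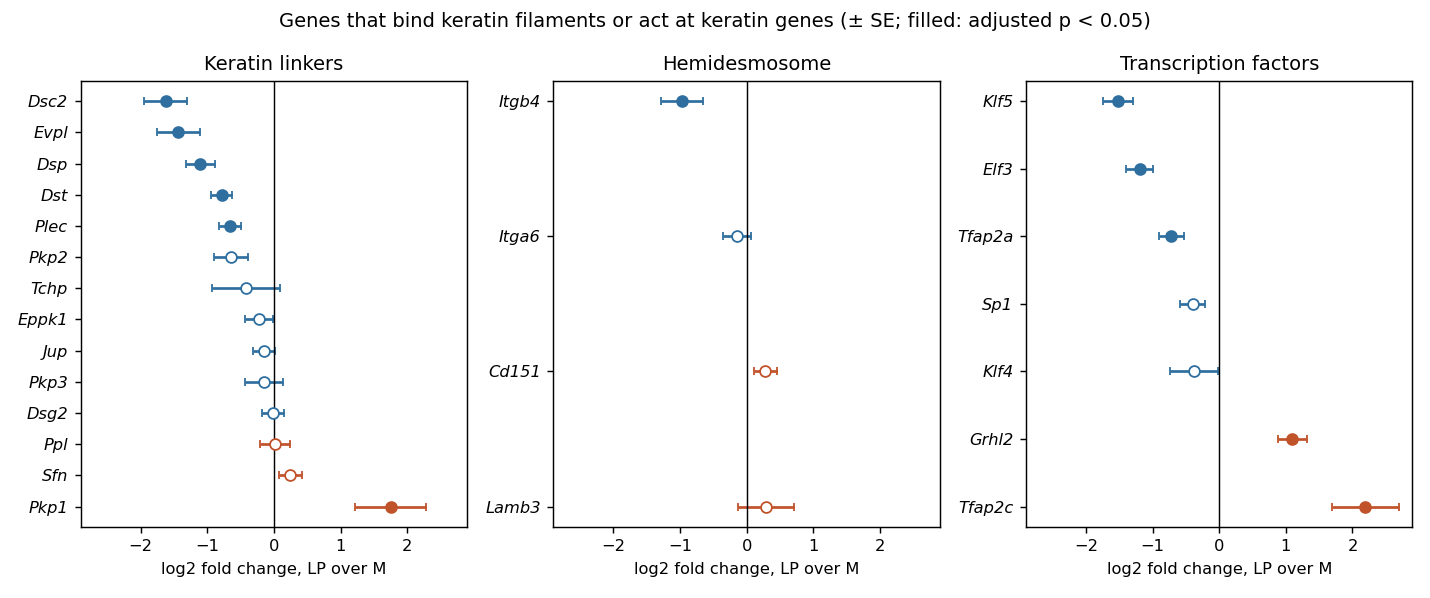
Log2 fold change of LP over M (horizontal axes, ± SE, negative where M is higher) for the tested genes of 3 lists, with points filled where the adjusted p from edgeR was under 0.05. In the linker list 5 genes were called higher in M and 1, Pkp1, higher in LP, and among the transcription factors Klf5, Elf3 and Tfap2a lie on the opposite side from Grhl2 and Tfap2c.

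Promoter sequences are shown for 3 of the keratins that were higher in M and for Krt23, to set their upstream sequences side by side. Krt23 was not called by the test on group alone, though some alternative fits called it higher in LP. RefSeq (GRCm38.p6) gave a promoter for 6 of the 10 members. Each run below is the 250 bases before the annotated start, 5′ to 3′ on the gene's own strand, and capitals mark CACCC or its complement, the core letters that KLF and Sp factors are known to bind.
Krt8, chr15:102004343-102004592, minus strand: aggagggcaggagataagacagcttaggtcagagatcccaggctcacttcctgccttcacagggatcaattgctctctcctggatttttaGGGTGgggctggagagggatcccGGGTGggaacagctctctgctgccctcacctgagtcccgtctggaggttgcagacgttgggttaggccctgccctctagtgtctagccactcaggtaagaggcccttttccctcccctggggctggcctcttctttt
Krt18, chr15:102027966-102028215, plus strand: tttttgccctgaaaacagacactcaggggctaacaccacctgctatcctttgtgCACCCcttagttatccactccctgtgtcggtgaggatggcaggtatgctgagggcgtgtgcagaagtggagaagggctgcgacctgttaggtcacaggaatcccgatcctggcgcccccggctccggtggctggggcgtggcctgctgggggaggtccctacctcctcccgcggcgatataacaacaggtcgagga
Krt7, chr15:101412153-101412402, plus strand: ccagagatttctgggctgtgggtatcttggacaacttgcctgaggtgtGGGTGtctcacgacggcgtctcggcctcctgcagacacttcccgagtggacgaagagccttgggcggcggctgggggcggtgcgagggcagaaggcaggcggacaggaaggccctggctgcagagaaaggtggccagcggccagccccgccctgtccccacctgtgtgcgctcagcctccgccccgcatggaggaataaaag
Krt23, chr11:99493121-99493370, minus strand: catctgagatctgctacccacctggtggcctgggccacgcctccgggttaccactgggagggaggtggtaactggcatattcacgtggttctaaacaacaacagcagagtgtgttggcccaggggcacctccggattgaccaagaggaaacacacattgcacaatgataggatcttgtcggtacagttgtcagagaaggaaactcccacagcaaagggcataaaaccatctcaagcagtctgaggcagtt
CACCC on either strand occurred at 2 places in Krt8 and at 1 place each in Krt18 and Krt7, and was not found in Krt23, against 52.0% of 32851 promoters of the same length that hold it. Krt5 had it at 3 places and Krt14 at 1, in a RefSeq window that lies inside the Krt14 gene, and neither was called. The GC box GGGCGG, searched on both strands, was found at 4 places in Krt7 and at 0 in the other 5 members (32.7% of all promoters). The AP-2 letters GCCNNNGGC, also on both strands, were found at 1 place in Krt18 and 2 in Krt7 (13.7% of all promoters). TATAA on the coding strand was found in Krt18 alone among these 6, starting 19 bases before the annotated start (16.0% of all promoters). GATAA on either strand was found at 1 place each in Krt8, Krt18, Krt5 and Krt14 (22.6% of all promoters). These matches describe the letters in the windows and were not tested as binding sites.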

How the data were processed

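RNA-seq was made from 4 LP and 4 M libraries by FACS, low-input cDNA amplification and single-end sequencing of 51 bases. After trimming (cutadapt) and alignment to mm10 (bowtie2), the authors deposited raw, unscaled read counts per Entrez Gene ID. The counting program and its annotation are not given in the sources used here. The study's methods state 3 biological replicates per condition, whereas 4 libraries per group were present, and all 8 were used. Of 24594 IDs, 24570 matched RefSeq (GRCm38.p6).

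Counts were analysed with edgeR 4.0.16 in R 4.3.3 (TMM, filterByExpr, glmQLFTest on group alone). The SE was computed as the absolute log2 fold change divided by the square root of F. Ratios, and the member left out by the filter, were tested with two-sided exact permutation tests (scipy 1.17.1). mRNA lengths, exons and pseudogenes came from GENCODE M21, and identities from BLAST 2.17.0 (at least 80% over 100 bases). Motif searches used RefSeq promoters. The fits were checked on simulated data. Alternatives were RLE and upper-quartile factors, no filter or at least 10 counts in every library, DESeq2 1.42.0, the likelihood ratio test, a replicate block, an adjusted p under 0.01, and each library or same-numbered pair left out. The named genes were the 10 members, other keratins at 10 CPM or called, called genes of the lists, and the 3 closest profiles to Krt8 and Krt14. Members and lists were chosen with earlier results of these data known. A gene of the hemidesmosome list is not reported here.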

Additional observations from a re-analysis of the deposited data

Results flagged for a closer look

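The gap between an extreme library and its neighbour was read as a share of the range. In 3 of 20 sets of 4 libraries (10 keratins in each of 2 groups), this share exceeded Dixon's 95% limit for 4 values. For normally distributed values, chance flags about 1 in 20 sets. All 3 flagged sets held low counts with at least 1 library at 0, so this rate does not apply to them. Krt5 in LP replicate 3, the only LP library with counts of it (7), had a gap of 1.0 of the range. Any count above 0 there would have given the same gap. Krt5 in M replicate 3, at 15 counts against 0 to 1 in the others, had a gap of 0.879. Krt15 in M replicate 1, at 0 counts against 17 to 28, had a gap of 0.905.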

How the results depend on the processing

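Krt8, Krt18, Krt19 and Krt7 were called higher in M in all 19 other fits and at an adjusted p under 0.01. Over the alternatives, log2 fold changes ran from -1.34 to -1.01 for Krt8 (adjusted p 1.16e-07 to 0.0354), -1.75 to -1.33 for Krt18 (3.47e-11 to 0.0224), -1.85 to -1.33 for Krt19 (1.07e-08 to 0.0253) and -2.18 to -1.53 for Krt7 (2.70e-10 to 0.0153). The number of members called higher in LP moved from 0 to 1, always Krt23, with at least 10 counts in every library (1 called, adjusted p = 0.0435), DESeq2 (1, adjusted p = 0.0108), the likelihood ratio test (1, adjusted p = 0.0225) and the replicate block (1, adjusted p = 0.00187). With libraries or pairs left out it was 0 to 1, with 1 without M replicate 3 (adjusted p = 0.00326) and without replicate 3 of both groups (adjusted p = 0.00456), and the members called in all numbered 4 to 5. Krt23 stayed above 0 in all 19 fits (1.07 to 2.24, adjusted p 0.00187 to 0.213). Krt5 did not pass the filters on low counts, and with no filter its log2 fold change was -1.03 (adjusted p = 0.722). Krt80 turned from -0.35 to 0.0045 with the replicate block and ranged from -0.76 to 0.15 with libraries or pairs left out (0.15 without replicate 2), and was called in none.

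The main fit, on group alone, did not use the label numbers as a pairing, since what they mark is not stated. Same-numbered libraries correlated at 0.0658 to 0.161 across genes in their deviations from the group means (others -0.0359 on average), and 7 of 8 libraries were closest to their own number, which is a hint from the data and not the design. The replicate block gave 3027 called genes against 3161 and 5 called members against 4. Scaling moved the median of all genes by at most 0.0327. Depth limits Krt5, Krt14, Krt15 and Krt80, which had at most 129 counts in any library.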
